A study of Mus musculus with 6 samples.

Results

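Toll-like receptors are the germline sensors with which B cells read microbial and self ligands directly, and 9 genes of this system were followed here in CpG-activated B cells: the receptors Tlr1, Tlr2, Tlr3, Tlr4, Tlr6, Tlr7 and Tlr9, the receptor-like Cd180, and Unc93b1, the chaperone of the nucleic acid receptors. They were chosen by name, as 9 of the 41669 gene symbols in the table, and all 9 were among the 12172 genes that passed the filter on low counts. The groups were 3 female and 3 male NZB/W F1 mice, a hybrid of the NZB and NZW strains that develops lupus-like disease, all sampled at the late stage, with no age given. The cells were splenic B cells held on a positive-selection column and then cultured for 24 h with CpG, so every group had received the same ligand and no unstimulated cells were compared. Each library came from 1 mouse. The design text asks how expression in diseased females differs from that in diseased males.

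Tlr1, Tlr2, Tlr4 and Tlr6 work at the cell surface, where Tlr2 pairs with Tlr1 or Tlr6 to bind bacterial lipopeptides and Tlr4 with Ly96 (MD-2) binds lipopolysaccharide. Cd180 (RP105) resembles Tlr4 but lacks its signalling domain, sits on B cells with Ly86 (MD-1) and modulates their response to lipopolysaccharide. Tlr3, Tlr7 and Tlr9 sense double-stranded RNA, single-stranded RNA and CpG DNA inside endosomes, and reach them only when Unc93b1 carries them there from the endoplasmic reticulum. Tlr7 is encoded on the X chromosome. In mouse lupus models Tlr7 promotes autoantibody formation and loss of Tlr9 worsens disease.

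The 9 transcripts differed widely in base composition, and the results below refer back to this. The share of G and C in the longest annotated transcript was 39.4% in Tlr4, 40.0% in Tlr3, 41.0% in Tlr7, 45.1% in Tlr1, 45.6% in Tlr6, 46.0% in Cd180 and 49.3% in Tlr2. It was 56.2% in Tlr9 and 57.3% in Unc93b1, above that of 90.0% and 93.3% of the tested genes. A coding stretch of 120 bases from 4 members shows the contrast, each picked as the stretch nearest in composition to the gene's whole coding sequence, with G and C in capitals. They lie, on GRCm38, at chr13:102704706-102704825 on the plus strand (Cd180, 44.2% G and C), chrX:167308321-167308440 on the minus strand (Tlr7, 40.8%), chr9:106223604-106223723 on the plus strand (Tlr9, 56.7%) and chr19:3941546-3941665 on the plus strand (Unc93b1, 58.3%), and were read 5′ to 3′ from the GENCODE M21 transcripts.
Cd180: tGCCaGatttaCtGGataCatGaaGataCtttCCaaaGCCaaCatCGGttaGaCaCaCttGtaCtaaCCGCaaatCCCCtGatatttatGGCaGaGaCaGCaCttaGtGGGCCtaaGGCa
Tlr7: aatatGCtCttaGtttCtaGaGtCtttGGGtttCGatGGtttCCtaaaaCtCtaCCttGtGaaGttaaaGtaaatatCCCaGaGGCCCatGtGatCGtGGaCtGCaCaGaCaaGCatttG
Tlr9: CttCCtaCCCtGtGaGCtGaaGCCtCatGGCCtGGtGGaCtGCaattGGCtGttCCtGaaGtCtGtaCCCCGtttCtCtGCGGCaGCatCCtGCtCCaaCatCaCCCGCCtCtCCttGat
Unc93b1: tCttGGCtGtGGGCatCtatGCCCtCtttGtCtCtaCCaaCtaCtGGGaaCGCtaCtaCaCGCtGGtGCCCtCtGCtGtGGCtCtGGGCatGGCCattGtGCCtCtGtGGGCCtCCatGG

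Tlr1 and Tlr6 are neighbours on chromosome 5, and their transcripts share long identical stretches, which bears on how reads were divided between them. Of the 2995 runs of 31 bases in the longest Tlr1 transcript, 603 (20.1%) also occur in Tlr6, and 628 of 3647 in Tlr6 (17.2%) occur in another gene, 607 of them in Tlr1. The longest identical stretch has 229 bases and lies in the coding part, at chr5:64925537-64925765 in Tlr1 and at chr5:64953828-64954056 in Tlr6, both on the minus strand of GRCm38. It is printed whole in lower case because every base is the same in both genes.
Tlr1 and Tlr6: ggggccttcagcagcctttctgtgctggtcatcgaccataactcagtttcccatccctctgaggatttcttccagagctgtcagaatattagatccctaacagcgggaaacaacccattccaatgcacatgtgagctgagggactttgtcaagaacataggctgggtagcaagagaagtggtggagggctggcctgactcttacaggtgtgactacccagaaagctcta
The division of reads between Tlr1 and Tlr6 is therefore uncertain. No run of that length in Tlr2, Tlr4, Tlr7, Tlr9, Cd180 or Unc93b1 occurs in another annotated transcript, while 87 runs of Tlr3 (1.99%) also lie in the antisense transcript Gm45542, which has no row in the table. Cd180 overlaps Mast4 on the opposite strand, which was listed at 22.3 to 31.7 CPM. The sources used here do not say whether counting used strand.

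The libraries held 24089561 to 35659883 estimated counts, and 3 counts, the lowest level taken as detected, corresponded to 0.0841 to 0.125 CPM, counts scaled to a library total of 1000000. Female 3 stood apart. Its score was 94.2 on the leading principal component (50.8% of the variance), against -47.9 to 6.66 for the other 5 libraries, and its TMM factor (edgeR's correction for composition) was 0.816, against 0.993 to 1.07. The summed B cell markers were 2133, 2067 and 2275 CPM in the 3 females and 2313, 2063 and 2319 CPM in the 3 males. Ms4a1 (CD20) carried most of that sum, with 1424 to 1658 CPM, and Pax5 had 497 to 591 CPM. The other 5 of the 7 listed markers averaged 12.03 to 33.7 CPM over the 6 libraries, and each of them was lowest in female 3. Values below are CPM of the library total unless another scale is named. In bulk libraries such as these, fewer cells of a type and less RNA per cell cannot be told apart.

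The 9 members together took 249, 235 and 261 CPM in female mice 1 to 3 and 275, 352 and 292 CPM in male mice 1 to 3. Cd180 supplied 113 to 202 CPM of this sum. The plot of levels by library shows all members on 1 axis.

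**Figure D1:**
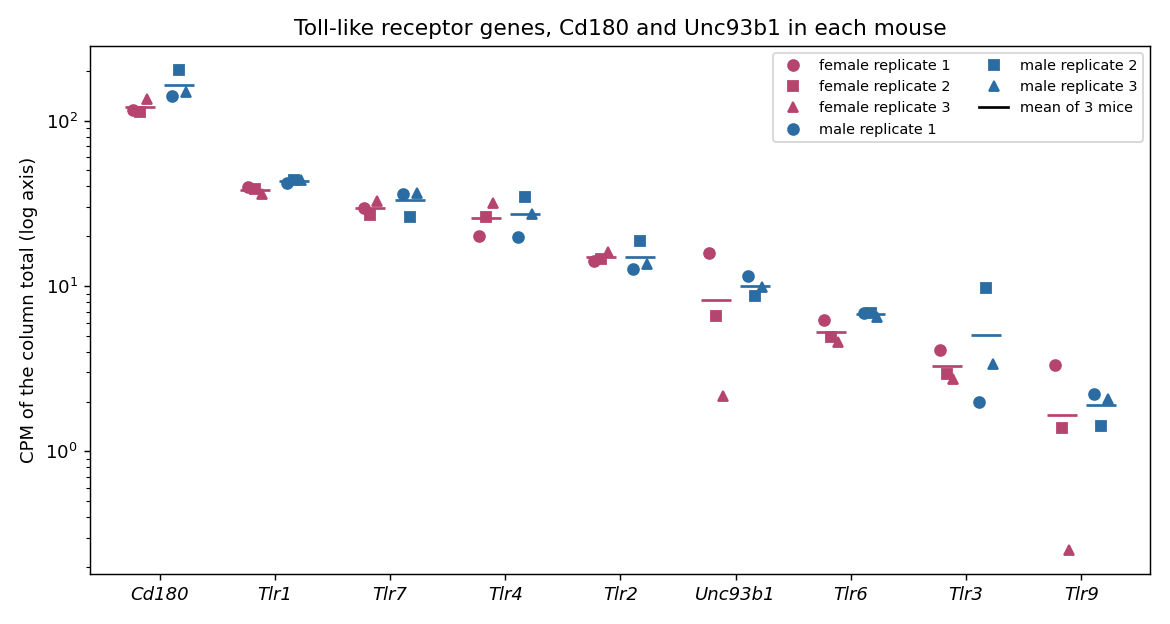
CPM of the library total of the 9 members, on a logarithmic axis, in female mice (left in each pair) and male mice (right), with 1 point for each library and a bar at the mean of each sex. Cd180 lies between 113 and 202 CPM in every library, while Tlr9 and Unc93b1 fall to 0.254 and 2.17 CPM in female 3.

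Of the surface receptors, Tlr1, which recognises triacylated lipopeptides together with Tlr2, had 39.4, 38.6 and 35.9 CPM in females and 42.1, 43.7 and 43.9 CPM in males. All 3 males lay above all 3 females on this scale, by a narrow margin, but not with TMM factors. The mean over 6 libraries was 40.6 ± 3.16 CPM (SD, n = 6). Tlr6, which with Tlr2 recognises diacylated lipopeptides, had 6.25, 4.94 and 4.57 CPM in females and 6.82, 6.82 and 6.53 CPM in males. Its groups did not overlap either, and both genes were lowest in female 3. Tlr2, the partner of both, had 14.2, 14.6 and 16.1 CPM in females and 12.6, 18.8 and 13.6 CPM in males. The sexes overlapped, and male 2 was highest. Per kilobase of transcript, Tlr1 was 7.66, 9.51 and 9.56 times Tlr6 in females and 7.51, 7.79 and 8.17 times in males, with the uncertain division of their reads set out above.

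Tlr4, the lipopolysaccharide receptor, had 19.9, 26.1 and 31.7 CPM in females and 19.7, 34.6 and 27.1 CPM in males. Its range in females lay inside its range in males. Its coreceptor for the same ligand, Ly96, had 13.2, 13.2 and 12.1 CPM in females and 15.2, 26.1 and 14.9 CPM in males, with male 2 highest, while Cd14, which hands lipopolysaccharide to the receptor, was at 0 in 4 of 6 libraries and reached at most 0.0413 CPM. Cd180 was the most abundant member. It had 116, 113 and 135 CPM in females and 142, 202 and 149 CPM in males. On this scale every male lay above every female, as in 7.55% of tested genes, and male 2 was highest. With TMM factors female 3 had 165 CPM, above male 1 (135 CPM) and male 3 (142 CPM), and male 2 had 193 CPM. Ly86, the protein that Cd180 needs to reach the surface, had 108, 106 and 74.6 CPM in females and 116, 114 and 106 CPM in males.

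Of the endosomal receptors, Tlr7 had 29.7, 27.0 and 32.6 CPM in females and 35.95, 26.1 and 36.7 CPM in males. Male 2 was lowest and the other males highest, so that the female values lay within the male range. Tlr3 had 4.12, 2.94 and 2.74 CPM in females and 1.99, 9.74 and 3.37 CPM in males. Male 2 had 267 counts of it, with a 95% Wilson interval of 8.64 to 11.0 CPM, and no other library reached beyond 5.00 CPM with its interval. Male 2 was thus far above the other 5 libraries for Tlr3.

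Tlr9, the receptor for the CpG given to the cells, was the least abundant member. It had 3.34, 1.39 and 0.254 CPM in females and 2.22, 1.42 and 2.07 CPM in males, from 81, 41 and 9 counts in females and 70, 39 and 69 counts in males. Female 1 was highest and female 3 lowest, so the females alone spanned a 13.1-fold range that enclosed all males. The 95% Wilson interval in female 3 was 0.133 to 0.480 CPM and in female 1 was 2.71 to 4.18 CPM, so that counting error did not bridge them. Unc93b1 had 15.7, 6.58 and 2.17 CPM in females and 11.5, 8.63 and 9.82 CPM in males, again with female 1 highest and female 3 lowest, over a 7.27-fold range.

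Divided by the length of the longest transcript, the levels fell into an order that was clear only at its upper end. Cd180 came first with 53.9 ± 12.2 CPM per kilobase (SD, n = 6) and Tlr1 followed with 13.4 ± 1.04, and both held these ranks in 6 of 6 libraries. Tlr7 followed with 8.05 ± 1.15 and Tlr4 with 6.50 ± 1.49 CPM per kilobase. Tlr2 had 4.97 ± 0.727, Unc93b1 4.01 ± 2.02, Tlr6 1.63 ± 0.268, Tlr3 0.942 ± 0.641 and Tlr9 0.513 ± 0.297 CPM per kilobase. Ranges over the 6 libraries were apart only between Cd180 and Tlr1, with a mean log2 ratio of 1.98 ± 0.25, and between Tlr1 and Tlr7, with 0.75 ± 0.22 (SD, n = 6). All other neighbours overlapped. Among these, Tlr4 was above Tlr2 in 6 of 6 libraries, Tlr7 above Tlr4, Unc93b1 above Tlr6 and Tlr6 above Tlr3 in 5 of 6, and Tlr2 above Unc93b1 and Tlr3 above Tlr9 in 4 of 6. The order among 36 pairs of means was the same with no length correction. With the median length of the coding transcripts in place of the longest, Unc93b1 moved above Tlr2 and the other 35 pairs kept their order. Unc93b1 was the most mobile member, at rank 4 in female 1 and male 1 and at rank 7 in female 3.

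The ratio between the RNA sensor and the DNA sensor, per kilobase, was 7.94, 17.3 and 114 (Tlr7 over Tlr9) in female mice 1 to 3 and 14.4, 16.5 and 15.8 in male mice 1 to 3. The 3 males lay close together, while the females held both the lowest and the highest ratio. The value in female 3 rests on 9 Tlr9 counts. Unc93b1 over Tlr9 per kilobase was steadier, at 7.23, 7.27 and 13.1 in females and 7.96, 9.36 and 7.28 in males.

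These levels stand beside a trend with base composition in the mean over all libraries. With the tested genes split into 10 deciles by the G and C content of their longest transcript, the median level over genes was 11.5 and 12.3 CPM per kilobase in the 2 lowest deciles and 0.675 in the highest decile. Unc93b1 lies in the highest decile, and Tlr9 at the upper edge of the one below it, which had a median of 1.45 CPM per kilobase. Tlr3, Tlr4 and Tlr7 lie in the 2 lowest deciles. How much of the low Tlr9 level or of the high Tlr7 to Tlr9 ratio goes with base composition was not tested.

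**Figure D2:**
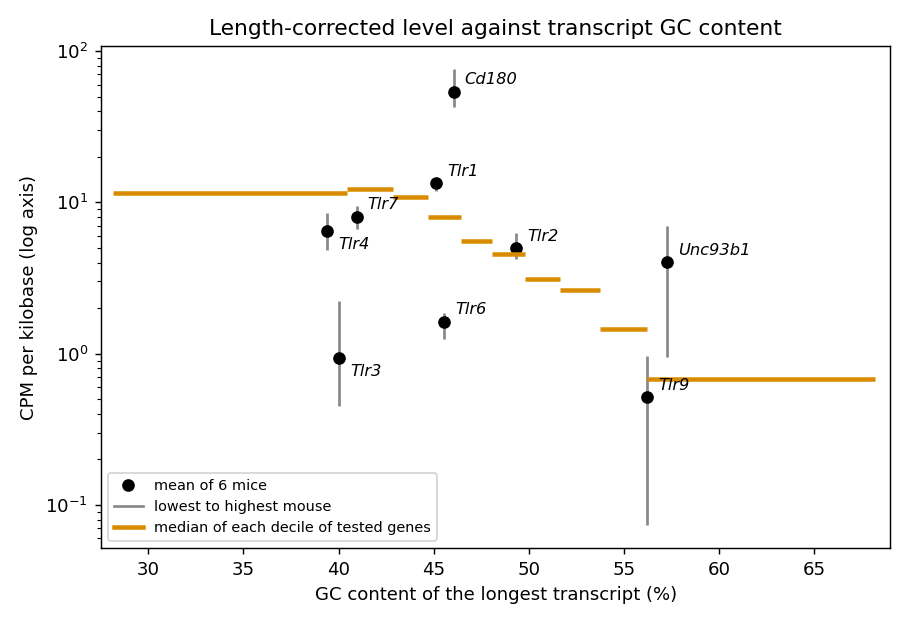
G and C content of the longest transcript (%) against the level in CPM per kilobase (logarithmic axis) for the 9 members, as the mean of 6 mice with a line over their range. Orange bars give the median of each decile of tested genes over its span of G and C content, down to 0.675 CPM per kilobase in the highest, and Tlr9 and Unc93b1 lie at that end with 56.2% and 57.3%.

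The spread between mice set 3 members apart from the other 6. The coefficient of variation (CV, the SD as a share of the mean) over 6 libraries was 68.1% for Tlr3, 58.0% for Tlr9 and 50.5% for Unc93b1, above the median of 26.4% over all tested genes, and only 6.10%, 10.6% and 16.2% of tested genes had a higher one. The other 6 members lay below that median. Tlr4 had 22.9%, Cd180 22.6%, Tlr6 16.5%, Tlr2 14.6% and Tlr7 14.3%. Tlr1 was the steadiest, with a CV of 7.78% that 94.7% of tested genes exceeded. A CV is usually larger at low levels, and its median was 35.5% over tested genes of 1 to 10 CPM, 19.5% over those of 10 to 100 CPM and 12.8% over those of 100 to 1000 CPM. Against genes of its own level, Tlr3, Tlr9 and Unc93b1 again lay above the median, Tlr4 and Cd180 also did, and Tlr1, Tlr2, Tlr6 and Tlr7 lay below. Counting error alone would give Tlr9 a CV of 18.3% and Tlr3 one of 10.04%, below what was measured.

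The wide spread came from different mice. For Tlr3 it lay among the males, with a CV of 22.8% in females and 82.1% in males, because of male 2. For Tlr9 and Unc93b1 it lay among the females, with 94.0% and 84.8% in females and 22.5% and 14.5% in males. The median tested gene also had the higher CV among females, 27.9% against 15.7% among males. Without female 3 the CV was 38.1% for Tlr9 and 33.1% for Unc93b1, against a median of 19.3% for the tested genes, and Tlr4 (24.2%) and Cd180 (24.9%) then also lay above the median, which made 5 members. With TMM factors the CV was 63.9% for Tlr3, 54.9% for Tlr9 and 46.5% for Unc93b1, and the median gene had 26.0%. Tlr4 then also lay above the median, with 29.6%. After a trend with transcript length and base composition was subtracted as well, the CV was 65.0% for Tlr3, 38.5% for Tlr9 and 24.0% for Unc93b1. The median gene then had 23.0%, with Tlr2 above it at 28.8% and Tlr4 below it at 17.1%. Each of these scales put 4 members above its median. The difference in spread between the sexes was not tested.

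**Figure D3:**
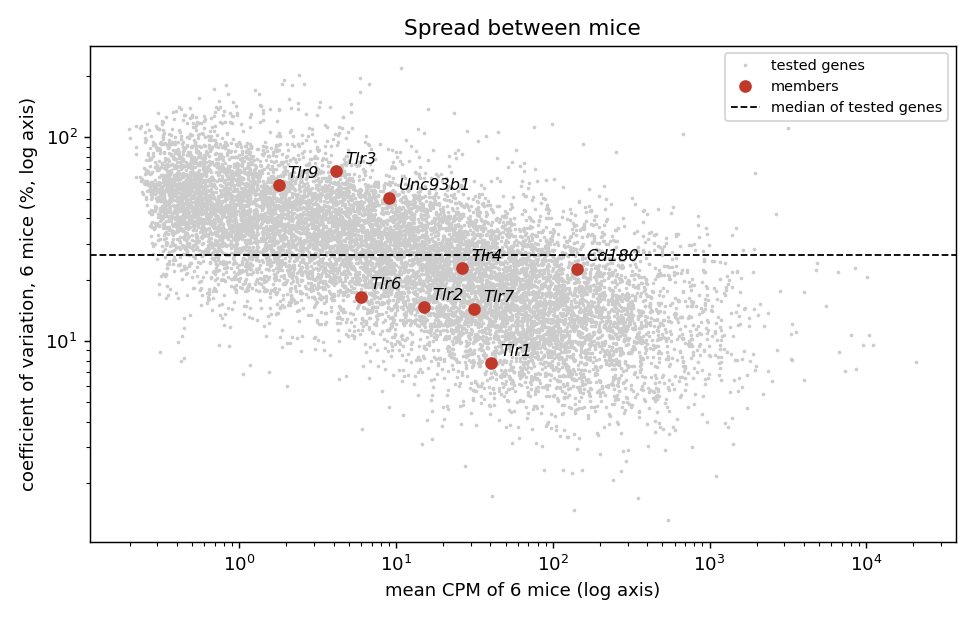
Mean CPM over 6 mice against the coefficient of variation over the same mice (%), both on logarithmic axes, for the 9 members (red points) and all tested genes (grey), with the median of the tested genes as a dashed line at 26.4%. Tlr3, Tlr9 and Unc93b1 lie above the line, between 50.5% and 68.1%, and Tlr1 is the lowest member at 7.78%.

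Tlr9 and Unc93b1 varied together across the mice. Both had the same order of libraries, female 1, male 1, male 3, male 2, female 2 and female 3 from highest to lowest. Of the 12172 tested genes, 453 (3.72%) had this order, and they included 108 of the 1203 genes in the decile richest in G and C (8.98%) and 1 of 1203 in the poorest (0.0831%). On the log2 scale of CPM with TMM factors and 0.5 added, Tlr9 deviated from its mean by 0.85, -0.09 and -1.31 in female mice 1 to 3 and by 0.37, -0.13 and 0.30 in male mice 1 to 3. Unc93b1 deviated by 0.87, -0.23 and -1.41 in females and by 0.45, 0.06 and 0.25 in males. The 0.5 added exceeds the 0.312 CPM of Tlr9 in female 3 on this scale, where Unc93b1 had 2.65 CPM. It therefore shrinks the deviation of Tlr9 more. Without it, Tlr9 spanned a 10.04-fold range with TMM factors and Unc93b1 a 5.55-fold range. The median gene of the decile richest in G and C moved the same way by less, with 0.41, -0.01 and -0.60 in females and 0.19, -0.04 and 0.08 in males. With the trend removed, Tlr9 deviated by 0.51, -0.04 and -0.91 in females and by 0.24, -0.07 and 0.26 in males, and Unc93b1 by 0.39, -0.20 and -0.62 in females and by 0.19, 0.09 and 0.14 in males. The part of base composition in this joint pattern was not tested beyond that removal.

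**Figure D4:**
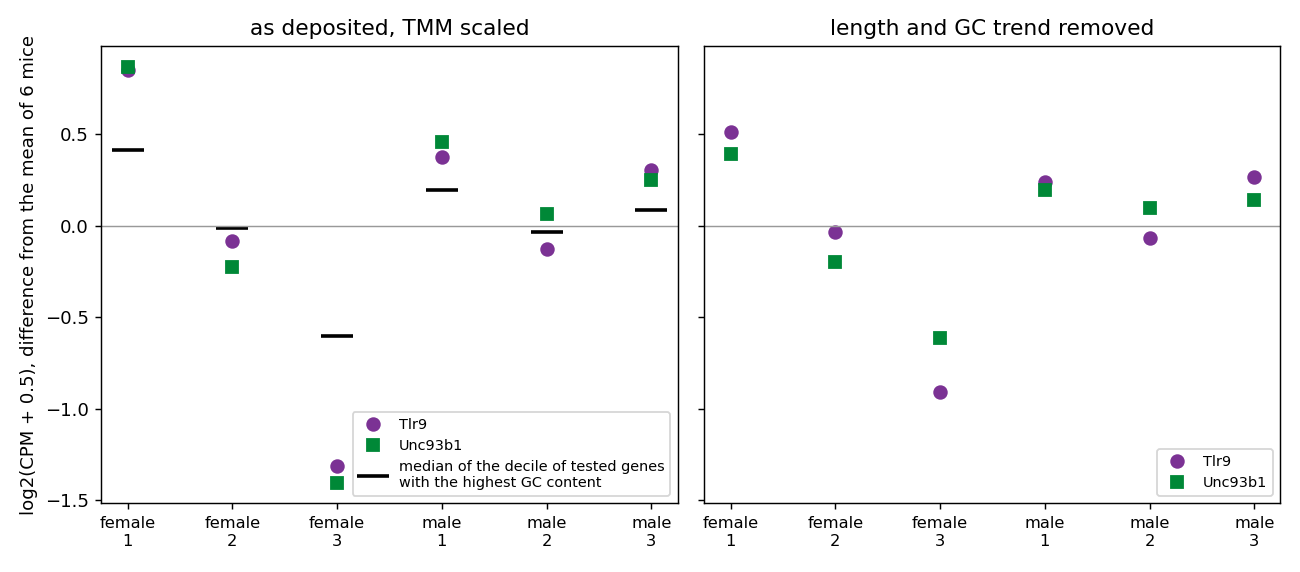
Deviation of Tlr9 and Unc93b1 from their own means over 6 mice (log2 of TMM-scaled CPM plus 0.5) in each library, on the left as measured, with the median gene of the decile richest in G and C as bars, and on the right with the trend with length and composition removed. Female 3 is lowest, at -1.31 for Tlr9 and -1.41 for Unc93b1 on the left and at -0.91 and -0.62 on the right. The 0.5 added shrinks the deviation of Tlr9 in female 3 more than that of Unc93b1.

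The other members did not share this order. Male 2 was the highest library for 5 of 9 members (Tlr2, Tlr3, Tlr4, Tlr6 and Cd180), against 23.8% of tested genes and Tlr6 had 6.82 CPM in male 1 as well. With TMM factors male 2 was highest for Tlr3, Tlr6 and Cd180, against 18.04% of tested genes, and female 3 was highest for Tlr1, Tlr2, Tlr4 and Tlr7, against 30.3% of tested genes. The library that is highest thus depends on the scale for Tlr1, Tlr2, Tlr4 and Tlr7.

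Between the sexes, no member was called. Differences are log2 fold changes of female over male, from edgeR's quasi-likelihood test on counts scaled with TMM factors, with p values adjusted by Benjamini-Hochberg over 12172 genes and a call at an adjusted p below 0.05. Under this rule 0 of 9 members were called, against 7 of 12172 genes (0.0575%), of which 3 were higher in females (0.0246%) and 4 in males (0.0329%). No member had an unadjusted p below 0.05 either, against 2.89% of tested genes, and DESeq2 and limma-voom also called 0. The median difference was -0.17 over the members and 0.00 over all tested genes.

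Tlr7 averaged 29.8 ± 2.81 CPM in females and 32.9 ± 5.90 CPM in males (SD, n = 3 each). Its log2 fold change was 0.01 ± 0.23 (SE), with a 95% interval of -0.52 to 0.54 and an edgeR adjusted p of 1.00. This value is on the scale of the TMM factors, which raise female 3, whereas the CPM mean was lower in females. Over all 16 ways of fitting it ran from -0.20 to 0.12. For Tlr9, females averaged 1.66 ± 1.56 CPM and males 1.90 ± 0.429 CPM (SD, n = 3 each), a log2 fold change of -0.17 ± 0.71 (SE) with an interval of -1.83 to 1.49 and an edgeR adjusted p of 0.999. It was 0.30 without female 3 and -1.08 without female 1. Unc93b1 averaged 8.17 ± 6.93 CPM in females and 9.99 ± 1.45 CPM in males (SD, n = 3 each), and its log2 fold change of -0.25 ± 0.55 had an interval of -1.52 to 1.01. It too turned positive without female 3 (0.15). Without female 1 it was -1.04, with an unadjusted edgeR p of 0.0435 and an adjusted p of 0.405. Tlr3 had -0.50 ± 0.56 with an interval of -1.81 to 0.82, and 0.40 without male 2. The intervals of Tlr9 and Unc93b1 reach beyond 1 log2 unit in both directions.

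For the surface members, the log2 fold change was -0.05 ± 0.15 (SE) for Tlr1, with a 95% interval of -0.39 to 0.30, and -0.23 ± 0.24 for Tlr6, with -0.79 to 0.34. Tlr2 had 0.15 ± 0.25 (-0.44 to 0.74) and Tlr4 0.11 ± 0.32 (-0.63 to 0.85). Cd180 averaged 121 ± 11.9 CPM in females and 164 ± 33.2 CPM in males (SD, n = 3 each), and had the smallest unadjusted p of the members, 0.248 in edgeR, with a log2 fold change of -0.27 ± 0.22 and an interval of -0.79 to 0.24. Without female 3 it was -0.50, with an unadjusted p of 0.0255 and an adjusted p of 1.00, and without male 2 it was -0.10. Over the 16 fits Cd180 and Tlr6 kept a negative sign, while Tlr1 ran from -0.19 to 0.01, Tlr2 from -0.04 to 0.35 and Tlr4 from -0.21 to 0.33. The adjusted p was 0.999 for every member except Tlr7.

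**Figure D5:**
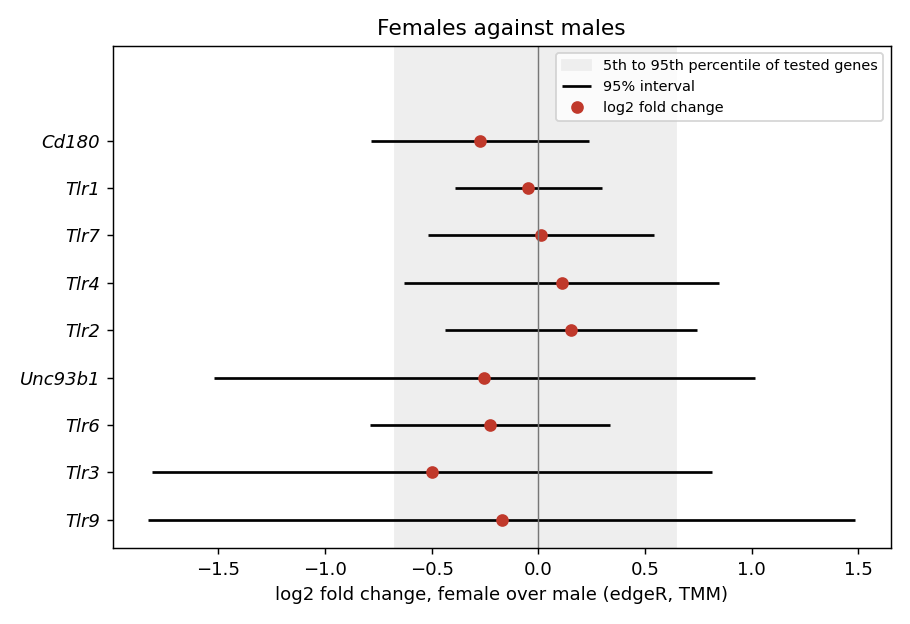
Log2 fold change of female over male for the 9 members with 95% intervals as lines, over a grey band from the 5th to the 95th percentile of the tested genes (-0.67 to 0.64). Every interval includes 0, from -0.39 to 0.30 for Tlr1, the narrowest, to -1.83 to 1.49 for Tlr9, the widest.

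Groups that do not overlap were common on the CPM scale and are not calls. Tlr1, Tlr6 and Cd180 (3 of 9) had every male above every female and no member had the opposite. Over all tested genes 7.55% had males higher throughout and 2.69% females higher throughout, 10.2% in all. With TMM factors 4.59% had males higher and 4.41% females higher, and of the members only Tlr6 remained without overlap. For Tlr1 and Cd180 the lack of overlap thus depends on the scale, while the mean with TMM factors was still lower in females, with 39.9 CPM in females and 41.2 CPM in males for Tlr1 and 129 CPM in females and 156 CPM in males for Cd180.

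The remaining Toll-like receptors of the mouse did not pass the filter on low counts. Tlr5, the flagellin receptor, and Tlr11, which senses a profilin, had no counts in any library, and Tlr12 had 1 count in female 2 and in male 3. Tlr13, a sensor of bacterial ribosomal RNA, had 3.98, 15.95 and 6.05 counts in females and 1.00, 0 and 3.99 in males. Tlr8, the X-linked neighbour of Tlr7, had 28.2, 19.0 and 9.12 counts in females and 0.754, 0.749 and 4.50 counts in males, so every female lay above every male. Without that filter edgeR gave it a log2 fold change of 3.18 ± 0.84 (SE), with an unadjusted p of 0.00292 and an adjusted p of 0.916. DESeq2 gave an unadjusted p of 0.00144 and an adjusted p of 0.290. Tlr8 is not called.

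Macrophages express Tlr8 and Tlr13. The summed level of macrophage markers was higher in every female than in every male. Over 11 of 12 listed genes in the table, it was 9.66, 16.2 and 7.55 CPM in females and 4.73, 4.29 and 5.29 CPM in males. The 6 tested ones all had log2 fold changes above 0 (median 1.00), and 0 of 6 were called by edgeR, while 2, Lyz2 and Spic, had an unadjusted p below 0.05 and were called by DESeq2. Hmox1 (heme oxygenase) had 1.99, 3.89 and 1.24 CPM in females and 1.53, 0.871 and 1.18 CPM in males, and the integrin Itgam had 2.14, 2.93 and 0.880 CPM in females and 0.701, 0.970 and 1.65 CPM in males. Lyz2 (lysozyme), chosen after its values were seen, had 2.39, 3.32 and 2.20 CPM in females and 0.282, 0.290 and 0.390 CPM in males. Of the 6 tested markers, only Lyz2 and Spic had every female above every male. Cd68, also chosen after its values were seen, had 0.906, 0.710 and 0.197 CPM in females and 0.823, 0.515 and 0.479 CPM in males. Its log2 fold change was 0.06. Of the defining markers, Csf1r, C1qa, C1qb and C1qc were at 0 in some libraries and reached at most 0.137 CPM. Neutrophil markers summed to 0.495, 0.305 and 0.0565 CPM in females and 0, 0.0726 and 0.150 CPM in males. Plasma cell markers summed to 331, 455 and 269 CPM in females and 256, 293 and 247 CPM in males, with 3 of 5 at an unadjusted p below 0.05, 0 called by edgeR and 2 (Igj and Prdm1) called by DESeq2. Of the 3, Irf4 had 144, 225 and 123 CPM in females and 111, 139 and 109 CPM in males. Igj and Prdm1, chosen after their values were seen, were higher in every female than in every male. The rest of the list, Xbp1 and Sdc1, did not differ in this way, with log2 fold changes of -0.0003 and 0.0032. Xbp1 had 124, 118 and 72.9 CPM in females and 115, 122 and 104 CPM in males. Plasmacytoid dendritic markers summed to 25.9, 19.3 and 8.83 CPM in females and 22.5, 14.6 and 20.7 CPM in males. T cell markers summed to 4.75, 3.45 and 3.23 CPM in females and 0.959, 2.77 and 3.05 CPM in males. In each list 1 gene (Ccr9 and Cd3d, both higher in females) had an unadjusted edgeR p below 0.05, and 0 were called by edgeR, DESeq2 or limma-voom. Most of the plasmacytoid sum was Ly6d, with 22.4, 10.5 and 5.06 CPM in females and 20.2, 11.9 and 19.2 CPM in males. Its transcript had 54.0% G and C. The rest of that list was named after its values were seen. Ccr9 reached at most 7.14 CPM, Runx2 1.49 CPM, Siglech 0.475 CPM and Pacsin1 0.115 CPM, and Klk1 had no counts. Ly6d had a log2 fold change of -0.37 and the T cell marker Cd8a one of -0.72. Most of the T cell sum in females was Cd3d, with 4.54, 2.32 and 2.44 CPM in females and 0.477, 0.476 and 2.00 CPM in males. Cd3e, Cd3g, Trac and Cd4, named after their values were seen, reached at most 0.225 CPM, and Cd5 had no counts. Of the tested genes, 2 were positive and 1 negative in the plasmacytoid list, and 1 positive and 1 negative in the T cell list. The part of any of these cells in the Tlr8 counts was not tested.

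Within 500 kb on either side of Tlr7 (chrX:167304929-167330558, GRCm38), 16 annotated genes had a row in the table, 7 of them at 0 throughout, and 4 were tested. Besides Tlr7 these were Tmsb4x, which encodes an actin-binding peptide and had a log2 fold change of 0.08 ± 0.19 (SE), Prps2, an enzyme of nucleotide synthesis, with 0.15 ± 0.20, and the predicted gene Gm15232 with -0.20 ± 0.33. None was called.

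The receptors depend on chaperones, transport proteins and proteases. All 15 listed genes for folding and trafficking were tested, 9 with a positive and 6 with a negative fold change (median log2 value 0.13), and 0 were called. Hsp90b1 (gp96), the chaperone that folds most Toll-like receptors, had 3611, 3686 and 2760 CPM in females and 3370, 3453 and 3014 CPM in males. Tmed7, which helps export Tlr4, had 398, 437 and 541 CPM in females and 379, 413 and 392.5 CPM in males, with a log2 fold change of 0.39 ± 0.22 (SE). Rab10, a small GTPase that brings Tlr4 to the surface, had 0.44 ± 0.22. Of 5 proteases for receptor cleavage 4 were tested, 2 positive and 2 negative, median 0.02. Ctss (cathepsin S) had 132, 148 and 124 CPM in females and 132, 164 and 124 CPM in males, Ctsb (cathepsin B) lay between 24.8 and 40.0 CPM and Lgmn (asparagine endopeptidase) between 5.76 and 14.3 CPM.

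Of 7 surface partners 4 were tested, 1 positive and 3 negative (median log2 fold change -0.25). Cd36, a scavenger receptor that assists Tlr2 and Tlr6, had 383, 619 and 993 CPM in females and 623, 513 and 548 CPM in males, so females 1 and 3 enclosed all males. Of 10 genes for ligand handling 8 were tested, 4 positive and 4 negative, median 0.04. Hmgb1, a chromatin protein that binds DNA and carries it to Tlr9, had 1567, 1450 and 1986 CPM in females and 1642, 1146 and 1600 CPM in males. Slc29a3, a lysosomal nucleoside transporter, had a log2 fold change of 0.46 ± 0.20 (SE), and Grn, progranulin, which delivers CpG DNA to Tlr9, had -0.26 ± 0.55. Dnase1l3, a secreted nuclease for self DNA, is named after its values were seen, as the 1 gene of the list with an unadjusted p below 0.05. It had 1.41, 0.654 and 0.915 CPM in females and 3.44, 1.85 and 2.95 CPM in males, with every male above every female, a log2 fold change of -1.34 ± 0.43 and an edgeR adjusted p of 0.999.

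Downstream of the receptors, 18 of 21 adaptors and kinases were tested, 8 positive and 10 negative (median log2 fold change -0.01). Chuk (IKK alpha) had 297, 324 and 351 CPM in females and 304, 402 and 341 CPM in males. Map3k7 (TAK1), the kinase that activates the IKK complex, had 184, 203 and 194 CPM in females and 191, 194 and 187 CPM in males, and its partner Tab2 lay between 108 and 122 CPM. Myd88, the adaptor of every Toll-like receptor except Tlr3, is named after its values were seen. It had 9.47, 8.54 and 4.12 CPM in females and 8.20, 8.44 and 7.08 CPM in males, lowest in female 3, with 53.5% G and C in its transcript. Of 12 inhibitors 10 were tested, 6 positive and 4 negative, median 0.01. Pik3ap1 (BCAP), which links the receptors to PI3 kinase, lay between 250.5 and 342 CPM, Irak3 (IRAK-M), a brake on Myd88 signalling, between 45.7 and 70.7 CPM, and Tnip3, which binds the inhibitor A20, between 23.4 and 69.9 CPM.

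Of the X-linked genes of the pathway, Btk, the kinase of B cell receptor and Toll-like receptor signalling, had a log2 fold change of 0.02 ± 0.13 (SE), Irak1, a kinase in the Myd88 complex, -0.09 ± 0.14, and Ikbkg (NEMO) -0.01 ± 0.14. With Tlr7 they made 4 tested of 5 with a row, 2 positive and 2 negative, median 0.00. Over all these lists without the members, 59 genes were tested, 30 positive and 29 negative, with a median of 0.00, and edgeR, DESeq2 and limma-voom each called 0, with 1 gene (1.69%) at an unadjusted edgeR p below 0.05 against 2.89% of all tested genes.

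The genes whose pattern over the 6 libraries was most like that of Tlr7 and of Tlr9 were found by the root mean square difference of centred log2 CPM (0.5 added), over 12171 tested genes. For Tlr7 they were Zik1, a zinc finger gene, at 0.039, Dhdh, a dehydrogenase gene, at 0.041 and Plekha8, a lipid transfer gene, at 0.055, where the median gene lay at 0.359. Without female 3 these held ranks 5, 7 and 20. For Tlr9 they were Ifi30, a lysosomal thiol reductase, at 0.044, Cnpy2, of the family of the receptor chaperone Cnpy3, at 0.053 and Vav1, a signalling protein of the antigen receptors, at 0.057, with a median gene at 0.663. Without female 3 these held ranks 4, 16 and 1. Their transcripts had 53.4%, 52.8% and 54.0% G and C. Unc93b1 came at rank 98 for Tlr9, at 0.144. The 0.5 added exceeds the 0.254 CPM of Tlr9 in female 3 and shrinks its difference from the other libraries. The likeness is a description over 6 points, and the genes compared share libraries, depth and, for Tlr9, a high G and C content.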

How the data were processed

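RNA sequencing of 6 libraries gave 1 table of estimated counts, which the authors deposited with a column for each mouse. The submitters' processing notes name kallisto, DESeq2 and the build GRCm38.p6, and versions, transcript annotation and strand setting are not given in the sources. Estimated counts were rounded to whole numbers for count tests. CPM divides a count by the column total, and no column of other samples was present.

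Symbols were matched to GENCODE M21 and RefSeq, both of GRCm38, and 40195 of 41669 (96.46%) found a match. Coordinates, lengths and base composition come from the longest GENCODE transcript.

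Females were compared with males in R 4.3.3 with the quasi-likelihood test of edgeR 4.0.16 (glmQLFit, glmQLFTest) in a model of sex alone, after filterByExpr by sex and TMM scaling. P values were adjusted by Benjamini-Hochberg over 12172 genes at an FDR of 0.05. P values measure the spread between 3 mice per sex, which the titles give as separate animals. The 15 alternatives were DESeq2 1.42.0, limma-voom (limma 3.58.1), RLE factors, library totals, no filter, 1 CPM in 3 libraries, unrounded counts, the replicate number as a block, subtraction of a trend with length and base composition (natural splines of 4 degrees of freedom each, 98.8% of tested genes), and each library left out. Removing the trend from spread and order, setting the spread beside genes of like level and reading Tlr8 from the unfiltered fit were chosen after seeing the data. Depth was 24089561 to 35659883 counts, and Wilson intervals and the floor of 3 counts cover counting error only. The test was tested on simulated data. These were drawn without a trend with base composition and without a library set apart like female 3. They cannot show how the test behaves under either.

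The members and lists were chosen with earlier results of these data known. Named besides the members were the 3 genes with the highest mean CPM of each pathway list. The tested genes around Tlr7 and the 3 most like Tlr7 or Tlr9 were named too. The 2 leading markers by mean CPM were named for the B cell, macrophage, plasma cell, plasmacytoid dendritic and T cell lists only. Cd14, Spic, Sdc1, Ccr9, Cd3d and others marked as such in the text were chosen after their values were seen. The values of 1 B cell marker are not reported here.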

Additional observations from a re-analysis of the deposited data

Results flagged for a closer look

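Tlr3 in male 2 lay far from the other 5 libraries, with 9.74 CPM against a next highest value of 4.12 CPM in female 1. The gap was 0.726 of the whole range, above the critical value of 0.625 for 6 values. Members were examined at both ends, in 18 comparisons, and chance flags about 1 in 20 groups. Without male 2 the log2 fold change of female over male was 0.40, against -0.50 with it, and edgeR called neither.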

How the results depend on the processing

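No member was called in any of the 15 alternatives. Tlr6 and Cd180 were lower in females in all 16 fits, and the sign of the other 7 members turned in at least 1 of them. The numbers of genes higher in females and higher in males were 3 and 4. DESeq2 gave 21 and 11, and the fit with no low-count filter gave 5 higher in females and the fit with the length and composition trend removed 6. Leaving out 1 library each gave 2 to 6 higher in females (6 without female 1 or female 3) and 1 to 6 higher in males (1 without female 2 or male 2). The cause was not tested, beyond the smaller number of samples where a library is left out.

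The replicate number as a block gave 3 and 4 and called no member. Same-numbered females and males had deviations that correlated at 0.22, 0.04 and 0.07. Female 1 and female 2 matched the male of their own number best, while female 3 matched male 2 best (0.12). Correlations this low over so few mice cannot tell whether the numbers pair the mice.

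The count of members with a spread above the median gene was 3, and 3 to 5 when 1 library was left out (5 without female 3, which adds Tlr4 and Cd180). The order of members kept 35 or 36 of its 36 pairs. Depth limits Tlr9 most, with 9 counts in female 3, and Tlr8, with 6.00 counts summed over the males.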
